A study of Mus musculus with 2 samples.

Results

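Neurons release transmitter when a synaptic vesicle fuses with the presynaptic membrane. Fusion is driven by SNARE proteins, of which VAMP (synaptobrevin) sits on the vesicle and syntaxins and SNAP-25 on the plasma membrane, while synaptotagmins sense calcium, complexins hold the assembled SNAREs in check until it arrives, and Munc13 and RIM proteins prepare vesicles for release. The lateral hypothalamic area holds GABA and glutamate neurons that drive feeding and arousal, among them the orexin neurons, which express Hcrt, and the melanin-concentrating hormone neurons, which express Pmch, and these store their peptides in dense core vesicles that are released through related proteins.

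The genes described here are the mouse synaptotagmins (Syt), complexins (Cplx), VAMPs, syntaxins (Stx), syntaxin binding proteins (Stxbp), SNAPs, synapsins (Syn1 to Syn3), vesicle glycoproteins Sv2a to Sv2c, RIMs (Rims) and Munc13 proteins (Unc13a to Unc13d). They were chosen by symbol, and 65 of 69 matching genes had 20 or more UMIs over both libraries. Syt8, Stx11, Stx19 and Cplx4 fell under that limit. The limit of 20 UMIs was met by 15535 of all 28692 genes. The choice by symbol also takes in syntaxins and VAMPs of general membrane traffic and Snap91, a clathrin assembly protein, so the symbols are broader than synaptic release.

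The study profiled single cells of the lateral hypothalamic area of C57BL/6 mice at postnatal day 30, all littermates, with the Chromium v2 chemistry, which counts the 3' ends of transcripts as unique molecular identifiers (UMIs). One library pooled 3 animals and is labelled male, the other pooled 2 animals and is labelled female, so there is 1 library per label and the animals cannot be separated. Genes of the sex chromosomes did not match either label: Xist had 20641 UMIs in the library labelled male and 30 in the library labelled female, while the Y-linked Ddx3y, Eif2s3y, Kdm5d and Uty had 0 in the former and 4524, 1508, 922 and 664 in the latter. The libraries are therefore named by their labels, that labelled male always first, and no difference is read as one of sex. They held 3439 and 3793 barcodes with 23151801 and 27437142 UMIs, and 18 barcode sequences occurred in both. After removal of low-quality barcodes and likely doublets, 3181 and 3515 cells remained, of which 2039 and 2266 fell in clusters with neuronal markers, with median depths of 7709 and 8126 UMIs per cell.

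Sequence just upstream of a gene's start is where its transcription is set, so the 250 bases before each annotated start were read from the RefSeq promoter table of GRCm38.p6. The table held 49 of the 65 genes, in 62 windows. Rims2, Rims4, Snap25, Syn3, Syt12, Syt13, Syt17, Syt4, Syt5, Syt7, Unc13d, Vamp2, Vamp3 and Vamp7 were among those not matched. Windows were searched on both strands for TTCAGCACC, the left part of the RE1 element bound by the repressor REST, for TGACGTCA, the cyclic AMP response element, and for the GC box GGGCGG. The 3 windows shown are those of Syn1, a neuronal vesicle gene with both TTCAGCACC and TGACGTCA, of Stxbp3, a gene of general traffic with TGACGTCA that stood higher in oligodendrocytes than in neurons, and of Syt2, one of the genes that differed most between kinds of neurons. Capitals mark the motif letters, on either strand, and each sequence runs 5' to 3' on the gene's own strand and ends at the base before its start.

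Syn1: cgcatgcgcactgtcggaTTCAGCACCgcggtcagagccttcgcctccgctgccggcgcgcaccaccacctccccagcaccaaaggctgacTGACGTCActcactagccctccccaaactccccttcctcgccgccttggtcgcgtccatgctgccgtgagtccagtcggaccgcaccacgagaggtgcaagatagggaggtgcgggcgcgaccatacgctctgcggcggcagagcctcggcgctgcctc

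Stxbp3: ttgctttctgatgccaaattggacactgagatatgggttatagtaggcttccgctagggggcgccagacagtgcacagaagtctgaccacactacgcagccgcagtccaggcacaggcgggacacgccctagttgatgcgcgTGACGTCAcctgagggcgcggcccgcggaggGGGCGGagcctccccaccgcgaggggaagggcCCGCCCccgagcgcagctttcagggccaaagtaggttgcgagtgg

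Syt2: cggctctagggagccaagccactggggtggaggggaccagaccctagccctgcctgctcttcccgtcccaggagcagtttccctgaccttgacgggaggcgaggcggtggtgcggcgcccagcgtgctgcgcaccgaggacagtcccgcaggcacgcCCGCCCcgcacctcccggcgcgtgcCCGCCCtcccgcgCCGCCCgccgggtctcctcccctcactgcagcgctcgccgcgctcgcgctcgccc

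The Syn1 window lies at chrX:20920919-20921168 on the minus strand, that of Stxbp3 at chr3:108840503-108840752 on the minus strand and that of Syt2 at chr1:134646362-134646611 on the plus strand, at 1 of 2 starts in the table for Syt2. Between starts of a gene, the one with the most motif matches was shown, or on a tie the first by position. In the Syn1 window TTCAGCACC began 232 bases and TGACGTCA 159 bases before the start. In the Stxbp3 window TGACGTCA began 108 bases before the start, with GC boxes nearer to it. TTCAGCACC was found in 1 of 62 member windows (1.61%) and in 0.301% of 32851 windows of all genes. TGACGTCA was found in 2 member windows (3.23%) and in 1.55% of all. The GC box was found in 39 member windows (62.9%) and in 32.7% of all. These are matches of letters, not sites shown to be bound, and a missing match says only that these letters are absent from that window.

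In neurons as a whole, the 65 genes made up 1.11% and 1.09% of UMIs. Levels are given as CPM, the UMIs of a gene per 1000000 UMIs of the cells named. With 3' counting a transcript's length does not enter, though genes can still differ in how well their ends are captured. Syt11, a synaptotagmin that does not bind calcium, had the highest level among them at 1212 and 1172 CPM, followed by Snap25 at 1125 and 1053 CPM. Vamp2, the main vesicle SNARE of the forebrain, stood at 913 and 795 CPM. Sv2a, a vesicle glycoprotein, stood at 815 and 800 CPM. Syt4, a synaptotagmin found on dense core vesicles, stood at 746 and 674 CPM, and Syt1, the fast calcium sensor, at 725 and 732 CPM. Syt4 and Syt1 lay close together, and so did Vamp2 and Sv2a in the library labelled female, and the order within each of these pairs was not the same in both libraries. At the other end, Cplx3 had 0.348 and 0.346 CPM. Syt15 was seen in neurons of the library labelled male alone, at 0.174 CPM.

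Neurons were divided by genes outside the list. A neuron in which Hcrt or Pmch gave at least 0.3% of the UMIs is called Hcrt-high or Pmch-high. The remaining cells with Slc32a1, the GABA vesicle transporter, and no Slc17a6, the glutamate vesicle transporter, are called inhibitory, and those with the reverse are called other excitatory. There were 982 and 1107 inhibitory cells, 600 and 689 other excitatory, 83 and 83 Hcrt-high and 85 and 61 Pmch-high cells. Another 95 and 128 cells had UMIs of both transporters and 194 and 198 of neither, and these entered no comparison. Median depths were 7841 and 8238 UMIs per cell in inhibitory neurons and 7806 and 8099 in other excitatory neurons. Hcrt-high cells had 16101 and 18593 UMIs, and Pmch-high cells 14237 and 12947. The module took a similar share of UMIs in each kind: 1.18% and 1.16% in inhibitory, 1.06% and 1.01% in other excitatory, 1.04% and 1.05% in Hcrt-high and 1.06% and 0.957% in Pmch-high neurons. What differed was which of its genes made up that share.

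Counts were summed per library and kind of neuron, and the 8 sums were fitted together with edgeR's quasi-likelihood test with the library as a block. Values from this fit are CPM after TMM scaling, which matches the sums on the bulk of their genes. Fold changes are log2 ± SE over 2 sums a group, and p-values are adjusted over 12273 genes by Benjamini-Hochberg, with 0.05 as the threshold. The block takes out the overall difference between the 2 pooled libraries. The p-values therefore rest on how far the differences between groups varied from one library to the other, and not on the spread between animals. Of the 65 genes 60 could be tested, and Vamp5, Syt15, Cplx3, Unc13d and Syt10 were too low. Other excitatory neurons serve as the reference in 3 of the 4 comparisons, so those comparisons share samples and are given side by side.

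**Figure D1:**
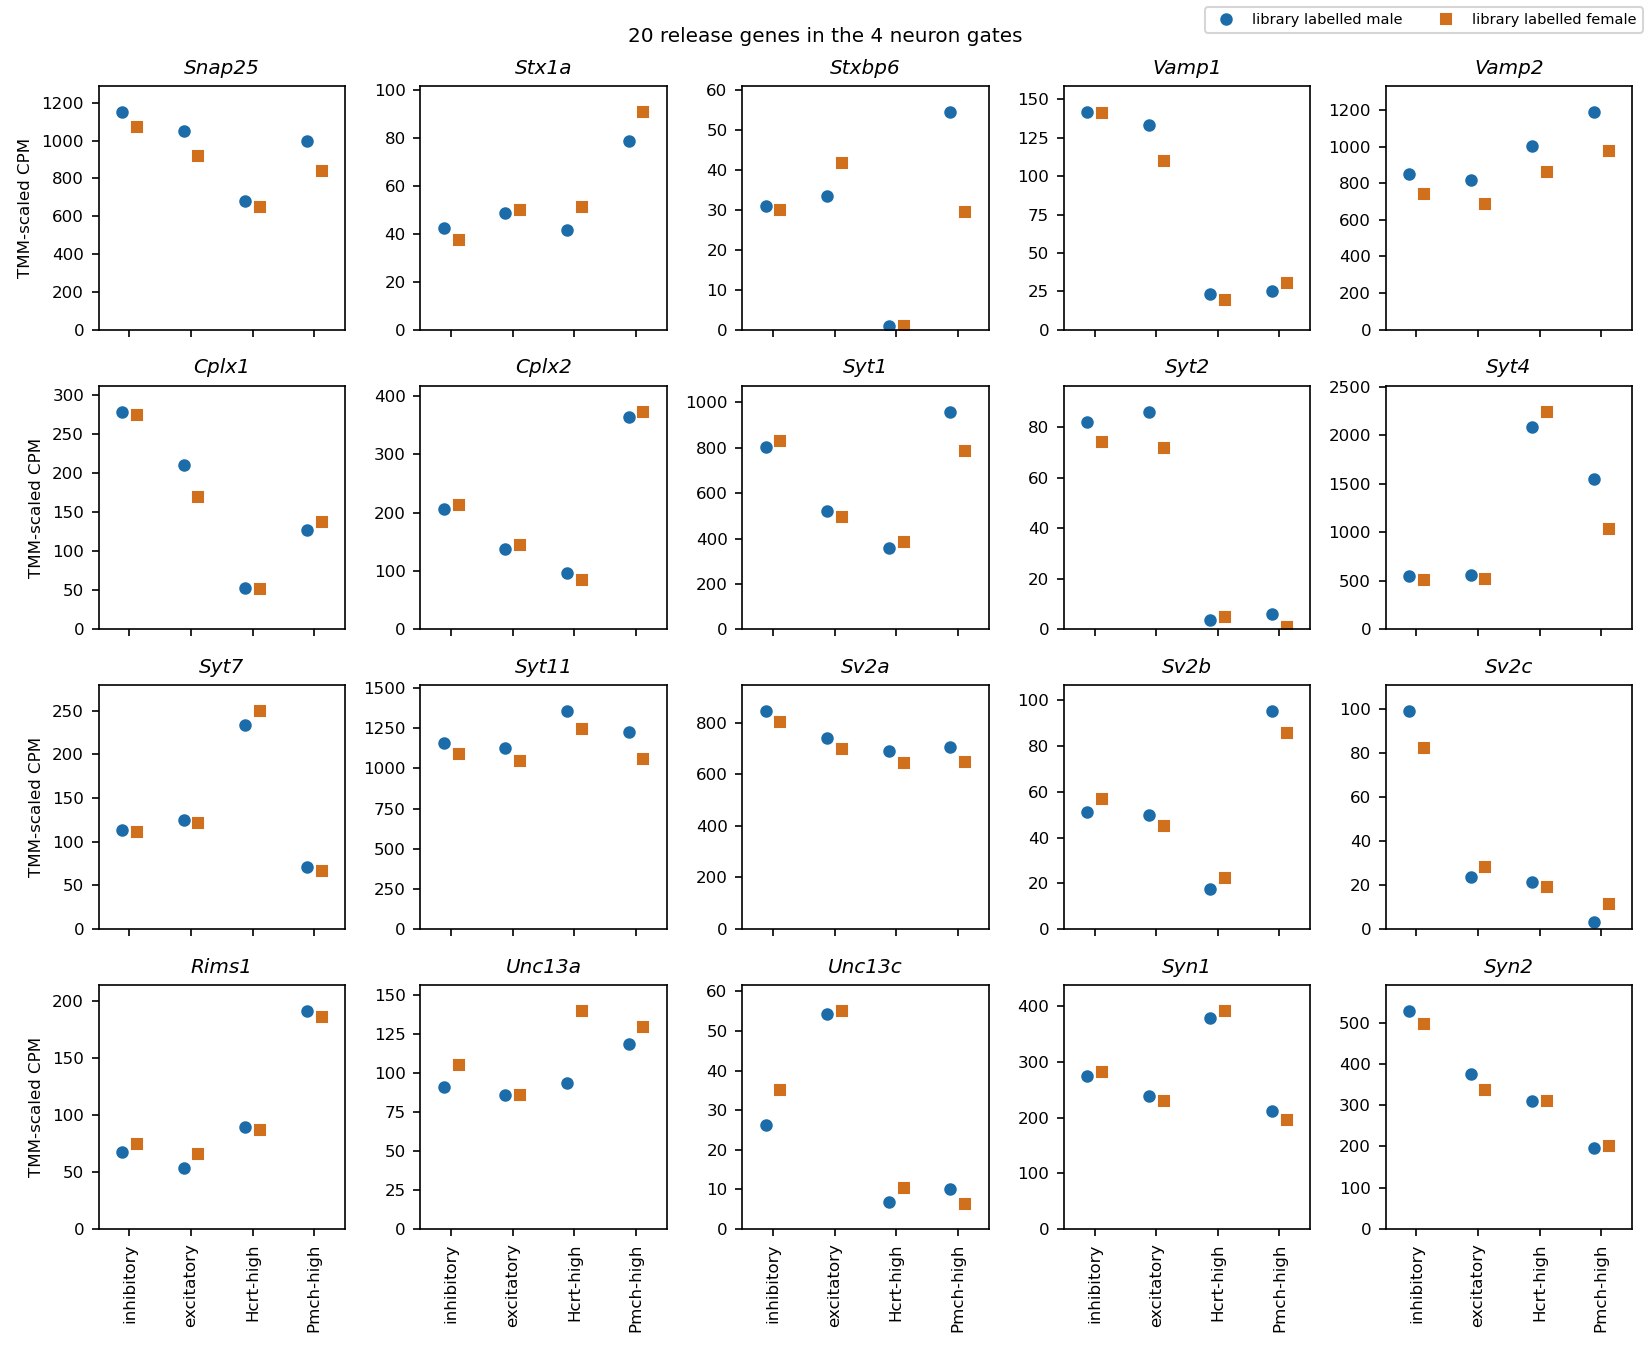
Levels of 20 release genes in the 4 kinds of neurons, as CPM after TMM scaling on a linear axis from 0, with a circle for the library labelled male and a square for that labelled female. Syt4 stands highest in Hcrt-high neurons at 2088 and 2242, Cplx2 in Pmch-high neurons at 365 and 373, and Syt2 lies under 10 in both peptide groups.

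Inhibitory neurons carried more of several vesicle and fusion genes than other excitatory neurons, and less of Unc13c. Of 60 genes tested 12 were higher and 4 lower, against 3.71% higher and 4.09% lower among all genes tested. The median log2 fold change was 0.08 over these genes and 0.00 over all genes. Sv2c was the sole gene of the list called at 2-fold or more, a limit at which the share of all genes was not counted. With the library block left out, or with DESeq2's Wald test, 5 were higher, and 2 or 1 were lower. Sv2c, Syt1, Cplx1, Cplx2 and Syn2 higher and Unc13c lower were called in each alternative run.

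Sv2c encodes the least widespread of the SV2 glycoproteins. It stood at 98.7 and 82.0 CPM in inhibitory and at 23.6 and 28.0 CPM in other excitatory neurons (log2 fold change 1.78 ± 0.11, edgeR adjusted p = 9.1e-13). Both inhibitory sums lay far above both excitatory sums. At least 1 UMI of Sv2c was found in 38.7% and 36.5% of inhibitory and in 12.5% and 16.3% of other excitatory cells. In mature oligodendrocytes, which should lack Sv2c, that share was 1.64% and 1.68% at median depths of 4170 and 4643 UMIs. Its relatives differed less, with Sv2a at 843 and 801 CPM in inhibitory and 741 and 698 CPM in other excitatory neurons (0.19 ± 0.05, edgeR adjusted p = 0.023). Sv2b stood at 51.0 and 57.0 CPM against 49.7 and 45.2 CPM and was not called (edgeR adjusted p = 0.21).

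Syt1 stood at 804 and 831 CPM in inhibitory and at 522 and 495 CPM in other excitatory neurons (log2 fold change 0.69 ± 0.06, edgeR adjusted p = 7.2e-09). Both inhibitory sums lay well above both excitatory sums. Syt2, the other fast calcium sensor, stood at 81.8 and 74.2 CPM against 86.0 and 71.6 CPM, and the groups overlapped (edgeR adjusted p = 0.97). Where Hcrt-high and Pmch-high cells were left among the excitatory neurons, Syt2 was called higher in inhibitory neurons (log2 fold change 0.36, edgeR adjusted p = 0.00022). Syt9, a further calcium sensor of vesicle release, was also higher in inhibitory neurons, at 33.9 and 32.5 CPM against 25.3 and 24.1 CPM. Syt5 was lower, at 83.7 and 69.7 CPM against 92.1 and 93.7 CPM.

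Both complexins with appreciable counts were higher in inhibitory neurons. Cplx1 stood at 279 and 275 CPM against 211 and 169 CPM (log2 fold change 0.55 ± 0.07, edgeR adjusted p = 7.1e-07). Cplx2 stood at 206 and 213 CPM against 138 and 145 CPM (0.57 ± 0.06, edgeR adjusted p = 1.3e-07). Neither overlapped between the groups. Of the synapsins, which tether vesicles in the reserve pool, Syn2 and Syn1 were higher and Syn3 was not called (edgeR adjusted p = 0.71). Syn2 stood at 529 and 498 CPM against 376 and 337 CPM (0.53 ± 0.06, edgeR adjusted p = 3.9e-07). Syn1 stood at 275 and 281 CPM against 240 and 230 CPM (0.25 ± 0.06, edgeR adjusted p = 0.0065), a call that was lost with DESeq2 (adjusted p = 0.19) and with edgeR without the block (adjusted p = 0.298).

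Among the SNAREs of transmitter release the differences were small. Snap25 was higher in inhibitory neurons by a log2 fold change of 0.18 and Vamp1 by 0.23, with edgeR adjusted p-values of 0.040 and 0.037. Stx1a, a plasma membrane syntaxin, was lower, at 42.7 and 37.4 CPM against 48.9 and 50.04 CPM (-0.31 ± 0.09, edgeR adjusted p = 0.033). Vamp2 stood at 849 and 739 CPM against 814 and 687 CPM and overlapped between the groups. The calls of Snap25, Vamp1, Stx1a, Sv2a, Syn1, Syt5, Syt9 and Rims1 were among those lost with DESeq2's Wald test and without the block. None of the 18 tested SNAREs of general membrane traffic and none of the 7 tested syntaxin binding proteins passed edgeR's threshold. Of all genes 7.8% were called in either direction, so the lack of calls in such short lists says little.

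Of the Munc13 genes, whose proteins open syntaxin so that SNAREs can assemble, Unc13c and Unc13b were lower in inhibitory neurons, and the call of Unc13c alone held in each alternative run. Unc13c stood at 26.2 and 35.2 CPM in inhibitory and at 54.2 and 55.0 CPM in other excitatory neurons (log2 fold change -0.82 ± 0.10, edgeR adjusted p = 9.8e-07). Unc13b stood at 9.05 and 10.3 CPM against 14.5 and 17.2 CPM (-0.71 ± 0.15, edgeR adjusted p = 0.0026), a call that was lost with DESeq2 (adjusted p = 0.158) and with edgeR on cells thinned to 3000 UMIs (adjusted p = 0.418). In both genes the excitatory sums lay above the inhibitory ones. Unc13a, the most abundant of the family in these neurons, stood at 91.1 and 105 CPM against 86.2 and 85.8 CPM and was not called (edgeR adjusted p = 0.15). In a fit of the inhibitory and other excitatory groups alone it was called higher (0.195, edgeR adjusted p = 0.0275). Rims1, an organiser of the active zone, was slightly higher in inhibitory neurons at 67.5 and 74.8 CPM against 52.9 and 65.4 CPM (0.26 ± 0.08, edgeR adjusted p = 0.044). It stood at a log2 fold change of -0.08 where peptide neurons were kept in the excitatory group.

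Hcrt-high neurons had a different make-up. They carried more of synaptotagmins 4, 5, 7 and 13 and far less of Syt2, Vamp1, Cplx1, Unc13c and Stxbp6 than other excitatory neurons. Of 60 genes tested 19 were higher and 15 lower, against 21.4% higher and 19.2% lower among all genes. Large shares of all genes were thus called in this comparison, and the count of higher genes is read with that in mind. The part of cell depth in these shares was not tested. At 2-fold or more, 4 were called higher and 10 lower. The share of all genes called at that limit was not counted, so these 2 counts cannot be set against it. Scaling mattered here, as seen with totals in place of TMM, an alternative chosen after seeing the data. The median log2 fold change of all genes moved from -0.02 to -0.28, and 11 genes of the list were higher. Of all 12273 genes 5540 were called on totals, 26.9% of them higher, beside 33.3% of the calls in the list. Syt11, Vamp2, Vamp7, Stx7, Snap29, Snap47, Snap91 and Unc13a were no longer called higher on that scale. Syt4, Syt5, Syt7, Syt13, Syt17 and Syn1 were called higher, and Syt1, Syt2, Syt16, Snap25, Vamp1, Cplx1, Cplx2, Unc13c, Rims4 and Stxbp6 lower, in each alternative run.

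Syt4 stood at 2088 and 2242 CPM in Hcrt-high and at 564 and 517 CPM in other excitatory neurons (log2 fold change 2.01 ± 0.09, edgeR adjusted p = 5.3e-16). It was the most abundant gene of the list in these cells, ahead of Syt11 at 1354 and 1247 CPM. Syt5 stood at 255 and 233 CPM against 92.1 and 93.7 CPM (1.39 ± 0.09, edgeR adjusted p = 2.5e-12). Syt7, a slow sensor with high calcium affinity, stood at 233 and 249 CPM against 125 and 122 CPM (0.97 ± 0.08, edgeR adjusted p = 3.7e-10). Each of these 3 genes was higher in both libraries without overlap. Syt13 stood at 414 and 443 CPM against 217 and 205 CPM (1.03 ± 0.07, edgeR adjusted p = 1.1e-11). Syt14 stood at 41.6 and 54.3 CPM against 12.9 and 17.6 CPM (1.65 ± 0.18, edgeR adjusted p = 3.0e-08). With cells thinned to 3000 UMIs Syt14 stood at 1.18 and was not called (edgeR adjusted p = 0.096). Of the 7 tested synaptotagmins outside the calcium sensor group, 5 were higher, and Syt12 and Syt16 were lower, beside 21.4% and 19.2% of all genes. The calls of Syt11 and Syt12 were also lost with thinning.

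The fast sensors were lower. Syt2 had 4 and 6 UMIs in Hcrt-high neurons, 3.87 and 4.79 CPM, against 86.0 and 71.6 CPM in other excitatory neurons (log2 fold change -4.15 ± 0.27, edgeR adjusted p = 2.5e-12). The level in other excitatory neurons was 22.2 times higher in one library (95% interval 8.62 to 81.9, counting error alone) and 14.9 times higher in the other (6.81 to 40.9). At least 1 UMI of Syt2 was seen in 4 of 83 and 5 of 83 Hcrt-high cells, 4.82% and 6.02%, although these cells were the deepest. The share was 1.48% and 3.03% in mature oligodendrocytes, so the few UMIs of Syt2 in Hcrt-high cells are near the level of free RNA. Syt1 stood at 358 and 385 CPM against 522 and 495 CPM (-0.45 ± 0.08, edgeR adjusted p = 0.00011). Syt3 was lower too, at 26.1 and 26.4 CPM against 50.4 and 52.5 CPM, but its call was lost with thinning to 3000 UMIs.

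Vamp1, the second vesicle SNARE, stood at 23.2 and 19.2 CPM in Hcrt-high and at 133 and 110 CPM in other excitatory neurons (log2 fold change -2.52 ± 0.18, edgeR adjusted p = 6.9e-12). Vamp2 stood at 1001 and 862 CPM against 814 and 687 CPM (0.31 ± 0.06, edgeR adjusted p = 0.00019). The pair thus moved in opposite directions under TMM scaling, though the rise of Vamp2 was not called with totals. Snap25 stood at 680 and 649 CPM against 1048 and 917 CPM (-0.56 ± 0.07, edgeR adjusted p = 1.3e-07). Stx1a overlapped between the groups at 41.6 and 51.1 CPM against 48.9 and 50.04 CPM.

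Cplx1 stood at 53.2 and 51.1 CPM in Hcrt-high and at 211 and 169 CPM in other excitatory neurons (log2 fold change -1.86 ± 0.14, edgeR adjusted p = 2.1e-11). Cplx2 stood at 96.8 and 83.9 CPM against 138 and 145 CPM (-0.66 ± 0.11, edgeR adjusted p = 2.2e-05). Both complexins were thus lower, Cplx1 by more. Among synapsins, Syn1 stood at 378 and 391 CPM against 240 and 230 CPM (0.72 ± 0.07, edgeR adjusted p = 1.2e-08), while Syn2 at 312 and 311 CPM against 376 and 337 CPM was not called (edgeR adjusted p = 0.058). Syn2 was called lower on totals (-0.45, edgeR adjusted p = 5.6e-05), with no low-count filter (edgeR adjusted p = 0.026), with a peptide limit of 1% (edgeR adjusted p = 0.036) and with 2 or more transporter UMIs (edgeR adjusted p = 0.016). Syn3 had 1 UMI in each Hcrt-high sum, and its level in other excitatory neurons was 5.90 (0.981 to 241) and 6.81 (1.14 to 277) times higher. Sv2b stood at 17.4 and 22.4 CPM against 49.7 and 45.2 CPM (-1.23 ± 0.20, edgeR adjusted p = 2.0e-05). With cells thinned to 3000 UMIs Sv2b stood at -0.55 and was not called (edgeR adjusted p = 0.42). Sv2a at 689 and 644 CPM against 741 and 698 CPM and Sv2c at 21.3 and 19.2 CPM against 23.6 and 28.0 CPM were not called (edgeR adjusted p = 0.18 and 0.28), but Sv2a was called lower on totals (-0.37, edgeR adjusted p = 4.0e-05) and with thinning (-0.36, edgeR adjusted p = 0.016).

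Stxbp6, which encodes amisyn, a SNARE-binding inhibitor of fusion, had 1 UMI in each Hcrt-high sum. Its level in other excitatory neurons, 33.5 and 41.8 CPM, was 34.6 (6.13 to 1375) and 52.3 (9.31 to 2074) times higher. A UMI of it was found in 1 of 83 Hcrt-high cells of either library (1.20%), against 19.3% and 22.4% of other excitatory cells. Unc13c stood at 6.77 and 10.4 CPM against 54.2 and 55.0 CPM (log2 fold change -2.64 ± 0.26, edgeR adjusted p = 4.7e-09). Unc13b stood at 27.1 and 33.6 CPM against 14.5 and 17.2 CPM (0.94 ± 0.21, edgeR adjusted p = 0.00071). Unc13a stood at 93.9 and 140 CPM against 86.2 and 85.8 CPM (0.46 ± 0.12, edgeR adjusted p = 0.0027), with the library labelled male close to the reference. Both calls were lost with thinning to 3000 UMIs (edgeR adjusted p = 0.18 for Unc13b and 0.26 for Unc13a), and that of Unc13a on totals (edgeR adjusted p = 0.15). Stxbp2, a syntaxin-binding protein of blood and epithelial cells, stood at 14.5 and 24.0 CPM against 9.32 and 10.3 CPM (0.997 ± 0.29, edgeR adjusted p = 0.0072). That call was lost with DESeq2 (adjusted p = 0.053) and with edgeR on thinned cells (adjusted p = 0.44), and the log2 fold change of Stxbp2 was 0.61 without the library labelled female. Snap29, a SNARE of endosomal and autophagic fusion, stood at 14.5 and 19.97 CPM against 7.99 and 11.03 CPM (0.86 ± 0.28, edgeR adjusted p = 0.017), and its call was lost with DESeq2 (adjusted p = 0.059), and with edgeR on totals (adjusted p = 0.082) and on thinned cells (adjusted p = 0.86).

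**Figure D2:**
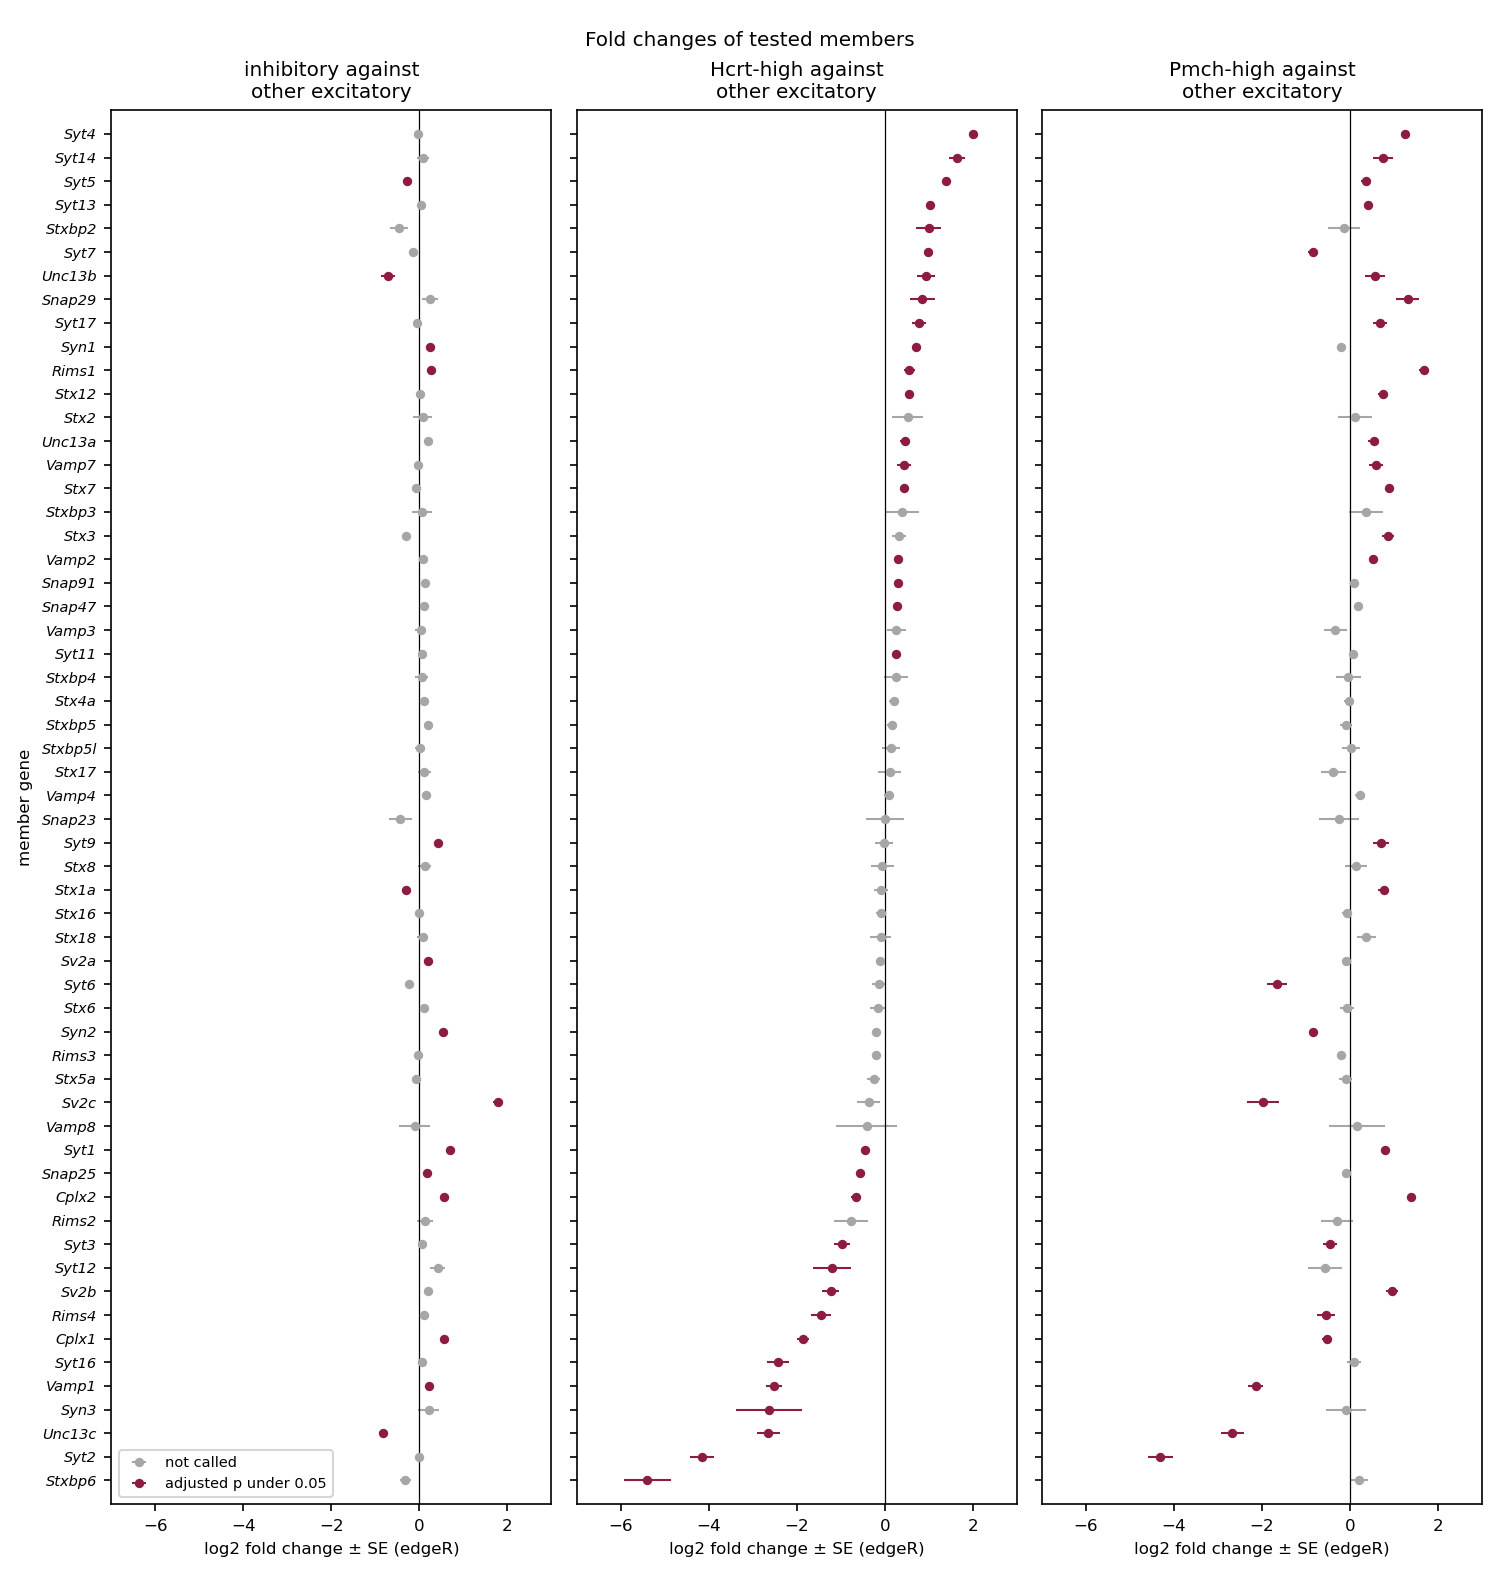
Log2 fold change with its standard error for 58 of the 60 tested release genes against other excitatory neurons, in inhibitory, Hcrt-high and Pmch-high neurons, ordered by the Hcrt-high value, with coloured points at an edgeR adjusted p under 0.05. Syt4 lies at 2.01 in Hcrt-high and at 1.26 in Pmch-high neurons and Syt2 at -4.15 and -4.31, while most genes in inhibitory neurons lie near 0.

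Pmch-high neurons were marked by more Cplx2, Syt4 and Syt1 and by less Syt2, Unc13c and Vamp1 than other excitatory neurons. Of 60 genes tested 19 were higher and 11 lower, against 19.1% higher and 17.1% lower among all genes. At 2-fold or more, 4 were higher and 5 lower, again without a count of all genes at that limit. With totals in place of TMM the median of all genes moved from -0.03 to -0.30, with 13 genes of the list higher and 21 lower. Of all 12273 genes 5424 were called on totals, 24.9% of them higher, beside 38.2% of the calls in the list. Cplx2, Stx7, Sv2b, Syt1, Syt4, Syt17 and Vamp2 higher, and Cplx1, Syn2, Syt2, Syt6, Syt7, Unc13c and Vamp1 lower, were among those called in each alternative run.

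Rims1 stood at 191 and 186 CPM in Pmch-high and at 52.9 and 65.4 CPM in other excitatory neurons (log2 fold change 1.68 ± 0.10, edgeR adjusted p = 7.7e-13). With cells thinned to 3000 UMIs Rims1 stood at 0.72 and was not called (edgeR adjusted p = 0.091). Cplx2 stood at 365 and 373 CPM against 138 and 145 CPM (1.38 ± 0.08, edgeR adjusted p = 9.9e-14). Cplx1 fell, at 127 and 138 CPM against 211 and 169 CPM (-0.53 ± 0.11, edgeR adjusted p = 0.00036). The balance of the 2 complexins was therefore shifted to Cplx2. Syt1 stood at 959 and 787 CPM against 522 and 495 CPM (0.79 ± 0.07, edgeR adjusted p = 2.3e-09). Syt4 stood at 1545 and 1030 CPM against 564 and 517 CPM (1.26 ± 0.09, edgeR adjusted p = 1.9e-11), both above the reference but unequal between the libraries. Syt7 fell, at 70.9 and 66.4 CPM against 125 and 122 CPM (-0.84 ± 0.12, edgeR adjusted p = 2.0e-06). Syt6 fell as well, at 14.8 and 11.2 CPM against 42.1 and 41.5 CPM (-1.66 ± 0.22, edgeR adjusted p = 1.4e-06).

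Syt2 had 8 UMIs and 1 UMI in Pmch-high neurons, 6.24 and 1.02 CPM (log2 fold change -4.31 ± 0.28, edgeR adjusted p = 2.3e-12). Its level in other excitatory neurons was 13.8 (6.94 to 32.2) and 70.1 (12.5 to 2775) times higher. Unc13c, at 10.1 and 6.13 CPM, and Vamp1, at 24.9 and 30.7 CPM, were low as in Hcrt-high neurons (-2.68 ± 0.26 and -2.15 ± 0.16, edgeR adjusted p = 6.5e-09 and 5.2e-11). Sv2c had 4 and 11 UMIs, 3.12 and 11.2 CPM (-1.98 ± 0.36, edgeR adjusted p = 9.1e-05), and thinning took away its call (-1.72, edgeR adjusted p = 0.115). The reference levels of all 4 genes lay above these values in both libraries. Sv2b rose, at 95.1 and 85.8 CPM against 49.7 and 45.2 CPM (0.95 ± 0.13, edgeR adjusted p = 2.1e-06). Syn2 fell, at 196 and 201 CPM against 376 and 337 CPM (-0.85 ± 0.09, edgeR adjusted p = 1.6e-08), and Syn1 at 212 and 195 CPM was not called (edgeR adjusted p = 0.072).

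Among the SNAREs of release, Stx1a and Vamp2 were higher in Pmch-high neurons. Stx1a stood at 78.7 and 90.9 CPM against 48.9 and 50.04 CPM (log2 fold change 0.76 ± 0.13, edgeR adjusted p = 6.1e-05). Both Pmch-high sums lay above both sums of the reference. With cells thinned to 3000 UMIs Stx1a stood at 0.75 and was not called (edgeR adjusted p = 0.11). Vamp2 stood at 1188 and 977 CPM against 814 and 687 CPM (0.53 ± 0.06, edgeR adjusted p = 9.0e-08). Snap25, Sv2a and Syt11 overlapped with the reference and were not called. On totals all 3 were called lower, Snap25 at -0.36, Sv2a at -0.35 and Syt11 at -0.19 (edgeR adjusted p = 5.1e-05, 6.8e-05 and 0.012). Snap25 was also called lower with 2 or more transporter UMIs (-0.16, edgeR adjusted p = 0.044). Snap29, Stx3, Stx7, Stx12 and Vamp7 made up 5 higher and 0 lower of the 18 tested SNAREs of general traffic, with log2 fold changes of 0.58 to 1.31, beside 19.1% of all genes higher. With thinning Snap29 stood at -0.27 (edgeR adjusted p = 0.91) and Stx3 was not called (edgeR adjusted p = 0.052). The calls of Stx12 and Vamp7 were lost with thinning too, and that of Vamp7 also on totals. Of these genes Stx7 alone was called in each alternative run. None of the 7 syntaxin binding proteins was called by edgeR in this comparison, beside 36.3% of all genes called in either direction.

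Set against each other, Hcrt-high and Pmch-high neurons differed in 26 genes of the list, 11 higher and 15 lower in Hcrt-high neurons, against 13.6% and 14.7% of all genes. Syt7 stood at 233 and 249 CPM in Hcrt-high and at 70.9 and 66.4 CPM in Pmch-high neurons (log2 fold change 1.81 ± 0.12, edgeR adjusted p = 5.1e-12). Syt5, Syn1, Syt4 and Syn2 were higher in Hcrt-high neurons by 1.03, 0.92, 0.76 and 0.65 on the log2 scale (edgeR adjusted p = 7.2e-08, 1.5e-08, 2.9e-07 and 1.5e-05). In the other direction, Cplx2 stood at 96.8 and 83.9 CPM against 365 and 373 CPM (-2.04 ± 0.11, edgeR adjusted p = 4.1e-14). Sv2b stood at 17.4 and 22.4 CPM against 95.1 and 85.8 CPM (-2.18 ± 0.21, edgeR adjusted p = 6.3e-09), and Syt1 at 358 and 385 CPM against 959 and 787 CPM (-1.23 ± 0.09, edgeR adjusted p = 2.0e-11). Rims1 was lower in Hcrt-high neurons by a log2 fold change of -1.115, Cplx1 by -1.33 and Snap25 by -0.47. The calls of Rims1, Cplx1 and Snap25 were lost with cells thinned to 3000 UMIs. Stxbp6, with 1 UMI in each Hcrt-high sum, had 54.6 and 29.6 CPM in Pmch-high neurons. Syt2, Sv2a, Unc13a and Vamp1 were not called between the peptide groups. Syn2, Syn1, Syt4, Syt5, Syt7, Cplx2, Rims4, Stxbp6, Sv2b and Syt1 kept their call in each alternative run.

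**Figure D3:**
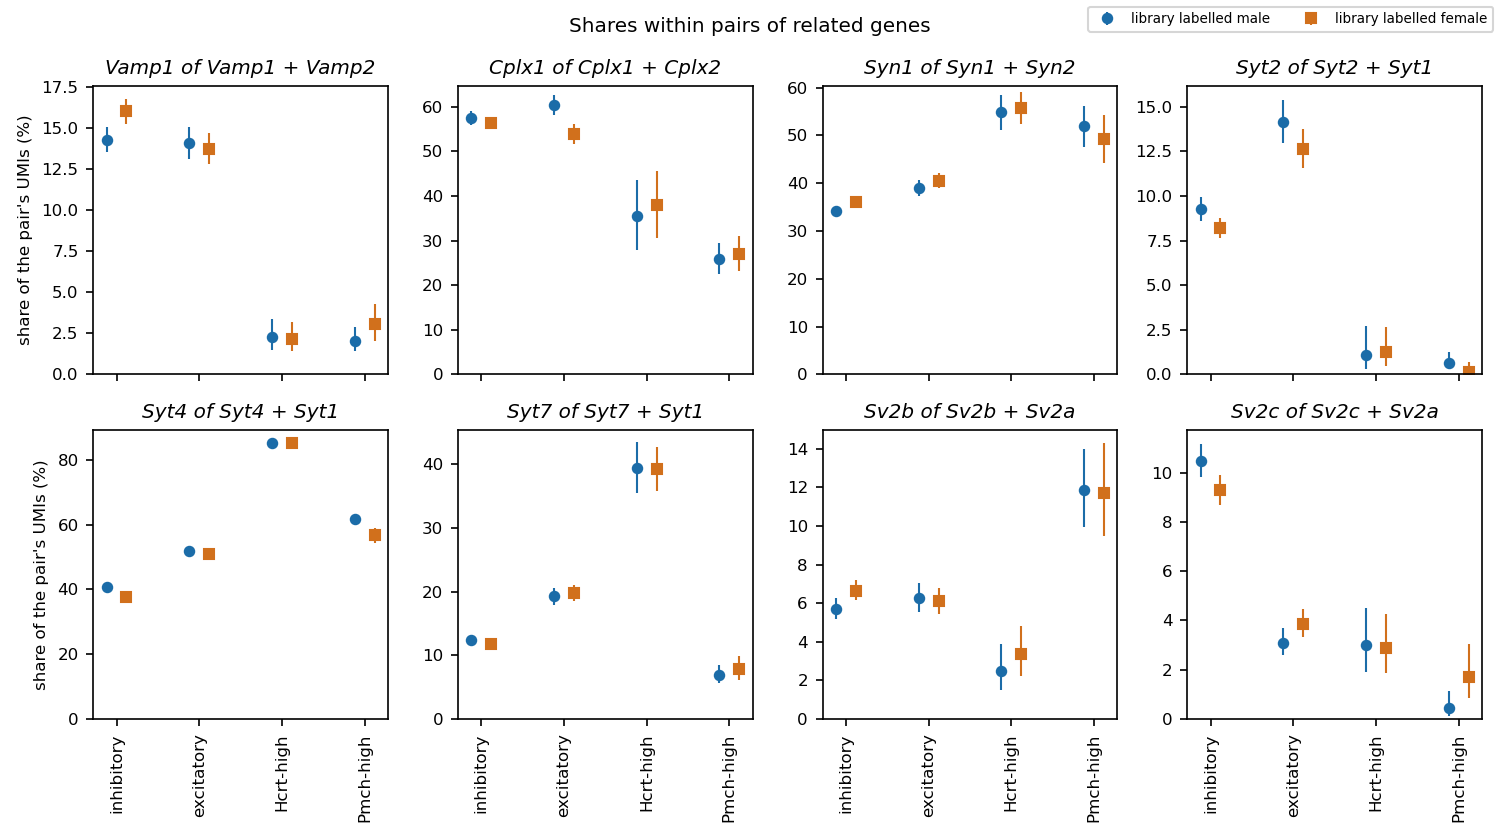
Share of 1 gene in the UMIs of a pair of related genes, in percent, by kind of neuron, with a circle and a square for the libraries labelled male and female and bars for 95% Clopper-Pearson intervals. Vamp1 makes up 14.3% and 16.0% of Vamp1 and Vamp2 in inhibitory neurons and under 4% in both peptide groups, and Syt4 makes up 85.4% and 85.3% of Syt4 and Syt1 in Hcrt-high neurons.

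A share within a pair of relatives does not depend on scaling. Vamp1 made up 14.3% and 16.0% of the UMIs of Vamp1 and Vamp2 in inhibitory and 14.1% and 13.8% in other excitatory neurons. In Hcrt-high neurons it was 2.27% and 2.18%, and in Pmch-high neurons 2.06% and 3.04%. Cplx1 made up 57.5% and 56.3% of Cplx1 and Cplx2 in inhibitory, 60.4% and 53.9% in other excitatory, 35.5% and 37.9% in Hcrt-high and 25.8% and 27.0% in Pmch-high neurons. The peptide neurons therefore held more Cplx2 than Cplx1 and the other neurons the reverse. Syn1 made up 54.8% and 55.7% of Syn1 and Syn2 in Hcrt-high and 51.9% and 49.2% in Pmch-high neurons. In other excitatory neurons it was 38.9% and 40.5%, and in inhibitory neurons 34.2% and 36.1%. Syt4 made up 85.4% and 85.3% of Syt4 and Syt1 in Hcrt-high neurons, 61.7% and 56.7% in Pmch-high, 51.9% and 51.1% in other excitatory and 40.7% and 37.8% in inhibitory neurons. Syt7 made up 39.4% and 39.3% of Syt7 and Syt1 in Hcrt-high neurons and 6.89% and 7.78% in Pmch-high neurons. In other excitatory neurons it was 19.3% and 19.8%, and in inhibitory neurons 12.4% and 11.8%. Unc13c made up 38.6% and 39.1% of Unc13c and Unc13a in other excitatory neurons, 22.3% and 25.1% in inhibitory neurons and under 8% in both peptide groups.

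RNA of other cell types was present in the neuron groups to unequal degrees. The summed level of 10 mature oligodendrocyte markers was 1337 and 1694 CPM in inhibitory, 1327 and 1684 CPM in other excitatory, 918 and 1138 CPM in Hcrt-high and 1708 and 1105 CPM in Pmch-high neurons. Astrocyte markers summed to 576 and 573 CPM in inhibitory, 413 and 431 CPM in other excitatory, 261 and 326 CPM in Hcrt-high and 324 and 356 CPM in Pmch-high neurons. Erythrocyte markers summed to 24.4 and 206 CPM in inhibitory, 26.0 and 668 CPM in other excitatory, 21.1 and 57.5 CPM in Hcrt-high and 22.3 and 53.7 CPM in Pmch-high neurons. Peptide neurons also had deeper cells, as given above. The part of these differences in the results was not tested, except that with cells thinned to 3000 UMIs 9 genes were higher in Hcrt-high and 8 in Pmch-high neurons. Calls among all genes fell with thinning as well. In Hcrt-high neurons they went from 4989 of 12273 genes to 1756 of 10110, in either direction. In Pmch-high neurons they went from 4450 of 12273 to 1064 of 10110.

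Companion genes of release, listed by function, moved as follows. Of 9 tested genes of dense core vesicle exocytosis, 6 were higher and 0 lower in Hcrt-high than in other excitatory neurons, with a median log2 fold change of 1.31, led by the granins Scg2 (4.45), Vgf (3.36) and Scg3 (2.17). In Pmch-high neurons 3 of these 9 were higher and 3 lower: Ptprn (0.95), Chga (0.78) and Scg3 (0.72) against Vgf (-1.04), Rab27a (-0.97) and Scg2 (-0.66). In inhibitory neurons Vgf (1.13) and Scg3 (0.26) were higher. Of 16 tested vesicle membrane and Rab genes, 11 were higher and 4 lower in Hcrt-high neurons, with the secretory GTPases Rab3b (2.13) and Rab27b (1.34) and the calcium sensors Doc2a (-3.25) and Rph3a (-2.94) at the ends. In Pmch-high neurons 8 were higher, led by Rab3b (2.00), and 4 lower, led by Synpr (-3.41). Inhibitory neurons had 2 higher and 3 lower, the latter being Rab3b (-0.91), Synpr (-0.73) and Doc2b (-0.64).

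Of 12 tested genes of SNARE cycling and docking, 1 was higher and 5 lower in Hcrt-high neurons, among them Cadps2 (-3.76) and Nsf (-1.31), the ATPase that takes SNARE complexes apart. In Pmch-high neurons 2 were higher, among them Snapin (0.33), and 2 were lower, Nsf (-1.07) and Sncb (-0.44). In inhibitory neurons Cadps2 (0.87) and Nsf (0.38) were higher. Of 13 active zone genes, 2 were higher and 5 lower in Hcrt-high and 5 higher and 1 lower in Pmch-high neurons, with Rimbp2, which links RIM to calcium channels, higher in both (1.15 and 1.67). Inhibitory neurons had 3 higher, Nrxn3 (1.84), Bsn (0.36) and Pclo (0.26), and 2 lower. Of 15 endocytosis genes, 4 and 5 were higher and 5 and 4 lower in Hcrt-high and Pmch-high neurons, and 0 higher and 2 lower in inhibitory neurons. The background shares of called genes given above apply to these counts.

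Among single cells, the broad genes and the selective genes were spread differently. At least 1 UMI of Vamp2 was found in 97.4% and 97.8% and of Snap25 in 98.0% and 97.8% of inhibitory cells. The 10% of inhibitory cells with the most UMIs of Vamp2 held 23.1% and 23.3% of its UMIs. For Syt2 the top 10% held 73.6% and 72.2%, and 26.3% and 26.6% of inhibitory cells had a UMI of it, where a cell with 0 UMIs may still express the gene. In other excitatory neurons 19.7% and 21.05% of cells had a UMI of Syt2, the top 10% held 85.6% and 83.5% of its UMIs, and the highest cells had 46 and 35.

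Smaller groups within the inhibitory and other excitatory neurons were formed by a marker gene, and overlap. With 2 sums a side and no test, a gene is counted where it differed at 2-fold or more from the rest of its parent group in both libraries. Excitatory cells with 3 or more UMIs of Cbln1, a synapse organiser, numbered 131 and 93, and had 4 genes higher and 0 lower against 1.33% and 2.16% of all genes. In them Syt2 stood at 176 and 225 CPM against 58.7 and 46.5 CPM in the rest. Cplx1 stood at 379 and 354 CPM against 165 and 150 CPM, Sv2b at 91.1 and 96.0 CPM against 38.1 and 39.6 CPM, and Unc13c at 95.4 and 117 CPM against 43.3 and 48.2 CPM. These are 4 genes that were low in Hcrt-high neurons. Excitatory cells with Trh, 55 and 47, had the same 4 genes higher and 3 lower, against 1.58% and 3.82%. Syt2 stood there at 179 and 308 CPM, Cplx1 at 491 and 450 CPM and Unc13c at 174 and 198 CPM. Of the cells with Cbln1, 41 and 31 also had Trh. Cells with Fezf1, a transcription factor of the medial hypothalamus, numbered 64 and 73 and had 3 higher and 0 lower, against 1.31% and 3.28%, namely Syt2 at 301 and 207 CPM, Cplx1 at 517 and 329 CPM and Sv2b at 112 and 117 CPM. The markers share cells, since 46 and 36 cells with Fezf1 also had Cbln1.

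In the other small groups 0 to 4 genes differed. Excitatory cells with Foxb1 had Stxbp6 at 144 and 172 CPM against 30.9 and 37.4 CPM, as 1 of 3 genes that differed, against 0.702% of all genes higher and 3.35% lower. Those with Otp had Unc13c at 87.5 and 92.0 CPM against 40.7 and 38.8 CPM, the 1 gene that differed, where 1.25% of all genes were higher and 2.95% lower. Those with Ebf3 had Sv2b at 28.6 and 22.8 CPM against 64.2 and 60.3 CPM, with 0 genes higher and 2 lower against 0.998% and 3.34%. Inhibitory cells with Nts, neurotensin, had Sv2c at 202 and 204 CPM against 91.3 and 72.8 CPM and Syt9 at 75.8 and 67.0 CPM against 30.3 and 31.0 CPM, as 2 higher and 1 lower against 0.901% and 2.92%. Those with Penk, enkephalin, had Sv2c at 200 and 170 CPM against 94.4 and 81.7 CPM, with 1 higher and 0 lower against 0.669% and 2.62%. Those with Tac2 had Stxbp6 at 71.9 and 75.4 CPM against 28.9 and 26.4 CPM, with 1 higher and 1 lower against 0.689% and 2.55%. Those with Cartpt had Syt2 at 26.8 and 32.2 CPM against 95.4 and 86.9 CPM, with 1 higher and 3 lower against 1.29% and 2.93%. Those with Gal had Stxbp6 at 14.4 and 15.7 CPM against 37.2 and 36.6 CPM, with 0 higher and 3 lower against 0.875% and 2.54%. Those with Th had Stxbp6 at 10.7 and 15.4 CPM against 34.5 and 33.9 CPM, with 0 higher and 2 lower against 0.599% and 2.61%. Stxbp6 was thus higher in Tac2 cells and lower in Gal and Th cells than in the rest. Those with Lhx6 had Sv2b at 24.6 and 30.2 CPM against 58.4 and 66.5 CPM, with 2 higher and 1 lower against 0.792% and 3.03%. Excitatory cells with Tac1 had 0 higher and 1 lower, against 0.908% and 2.35%. Counts that take in Cplx3, Unc13d, Syt10 or Vamp5 rest on a few UMIs. Inhibitory cells with Sst had 0 genes higher and 0 lower, against 1.21% and 2.71%.

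**Figure D4:**
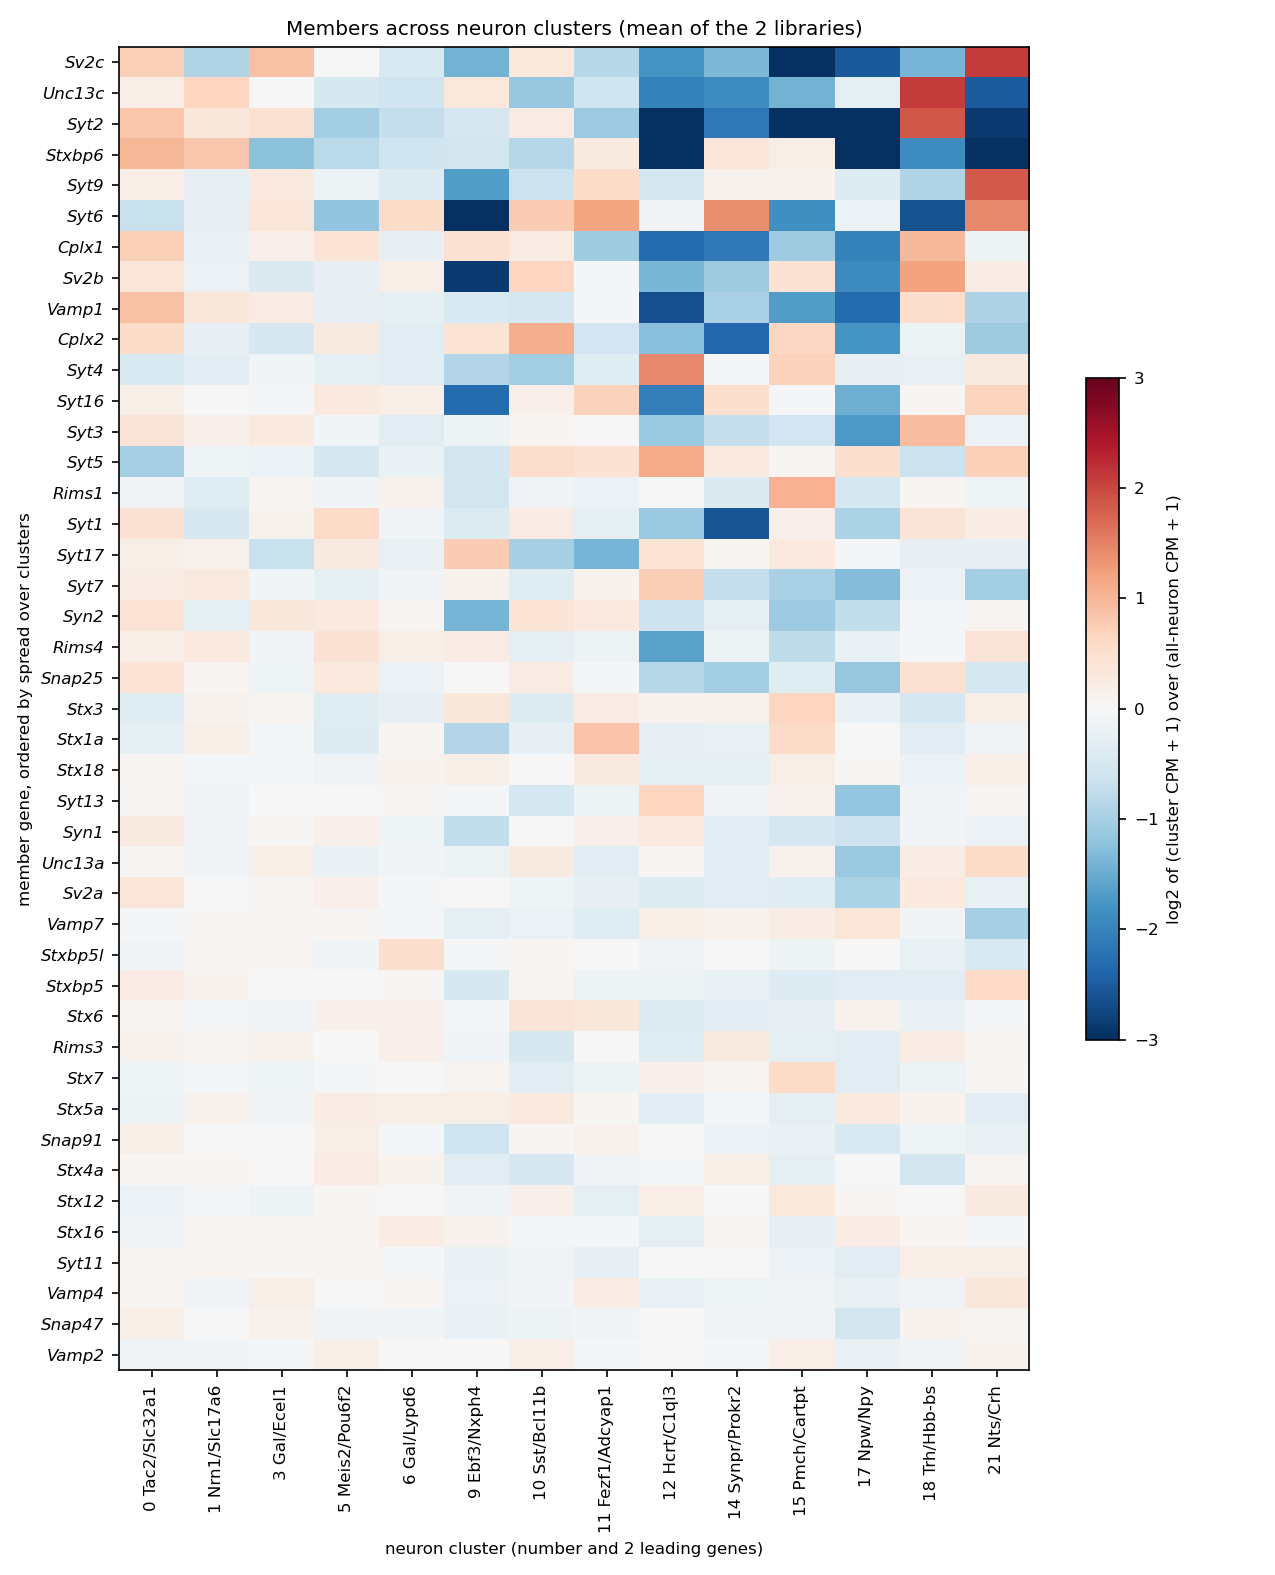
A set of 43 release genes at 20 CPM or more in neurons of both libraries (rows, ordered by their spread) in the 14 neuronal clusters with 20 or more cells in each library (columns, by number and 2 leading genes), coloured by log2 of cluster level over the level in all neurons, mean of both libraries, with 1 CPM added to each and colours ending at 3 in either direction. Vamp2 and Syt11 vary little over the clusters, while Syt2, Sv2c, Unc13c and Stxbp6 range from near absent to several times the neuronal level.

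The cells were also clustered with the 65 genes left out, and 14 neuronal clusters had 20 or more cells in each library. Over them, the coefficient of variation (SD over mean) of CPM was 0.0894 and 0.101 for Vamp2 and 0.120 and 0.108 for Syt11. Both broad genes hardly varied by cluster. The selective genes had 1.14 and 1.18 (Sv2c), 1.115 and 1.09 (Unc13c), 1.11 and 1.20 (Syt2) and 0.865 and 0.852 (Stxbp6). Low counts add to the latter values. Syt2 ranged from 3.22 and 3.43 CPM in the cluster led by Hcrt to 259 and 270 CPM in a cluster led by Trh, whose second leading gene was the haemoglobin gene Hbb-bs. The same Trh cluster was highest for Cplx1 (522 and 391 CPM), Sv2b (125 and 136 CPM) and Unc13c (158 and 180 CPM). Sv2c ranged from 2.65 and 7.43 CPM in the cluster led by Pmch to 263 and 293 CPM in that led by Nts and Crh, which was also highest for Syt6 and Syt9. Syt1 ranged from 105 and 136 CPM in a cluster led by Synpr and Prokr2 to 1001 and 1157 CPM in that led by Meis2. The cluster led by Synpr and Prokr2 was also lowest for Cplx2, at 30.2 and 46.1 CPM. Snap25 ranged from 529 and 459 CPM in a cluster led by Npw and Npy to 1532 and 1386 CPM in that led by Tac2, and Vamp2, Sv2a and Syt11 were lowest in the Npw cluster too.

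**Figure D5:**
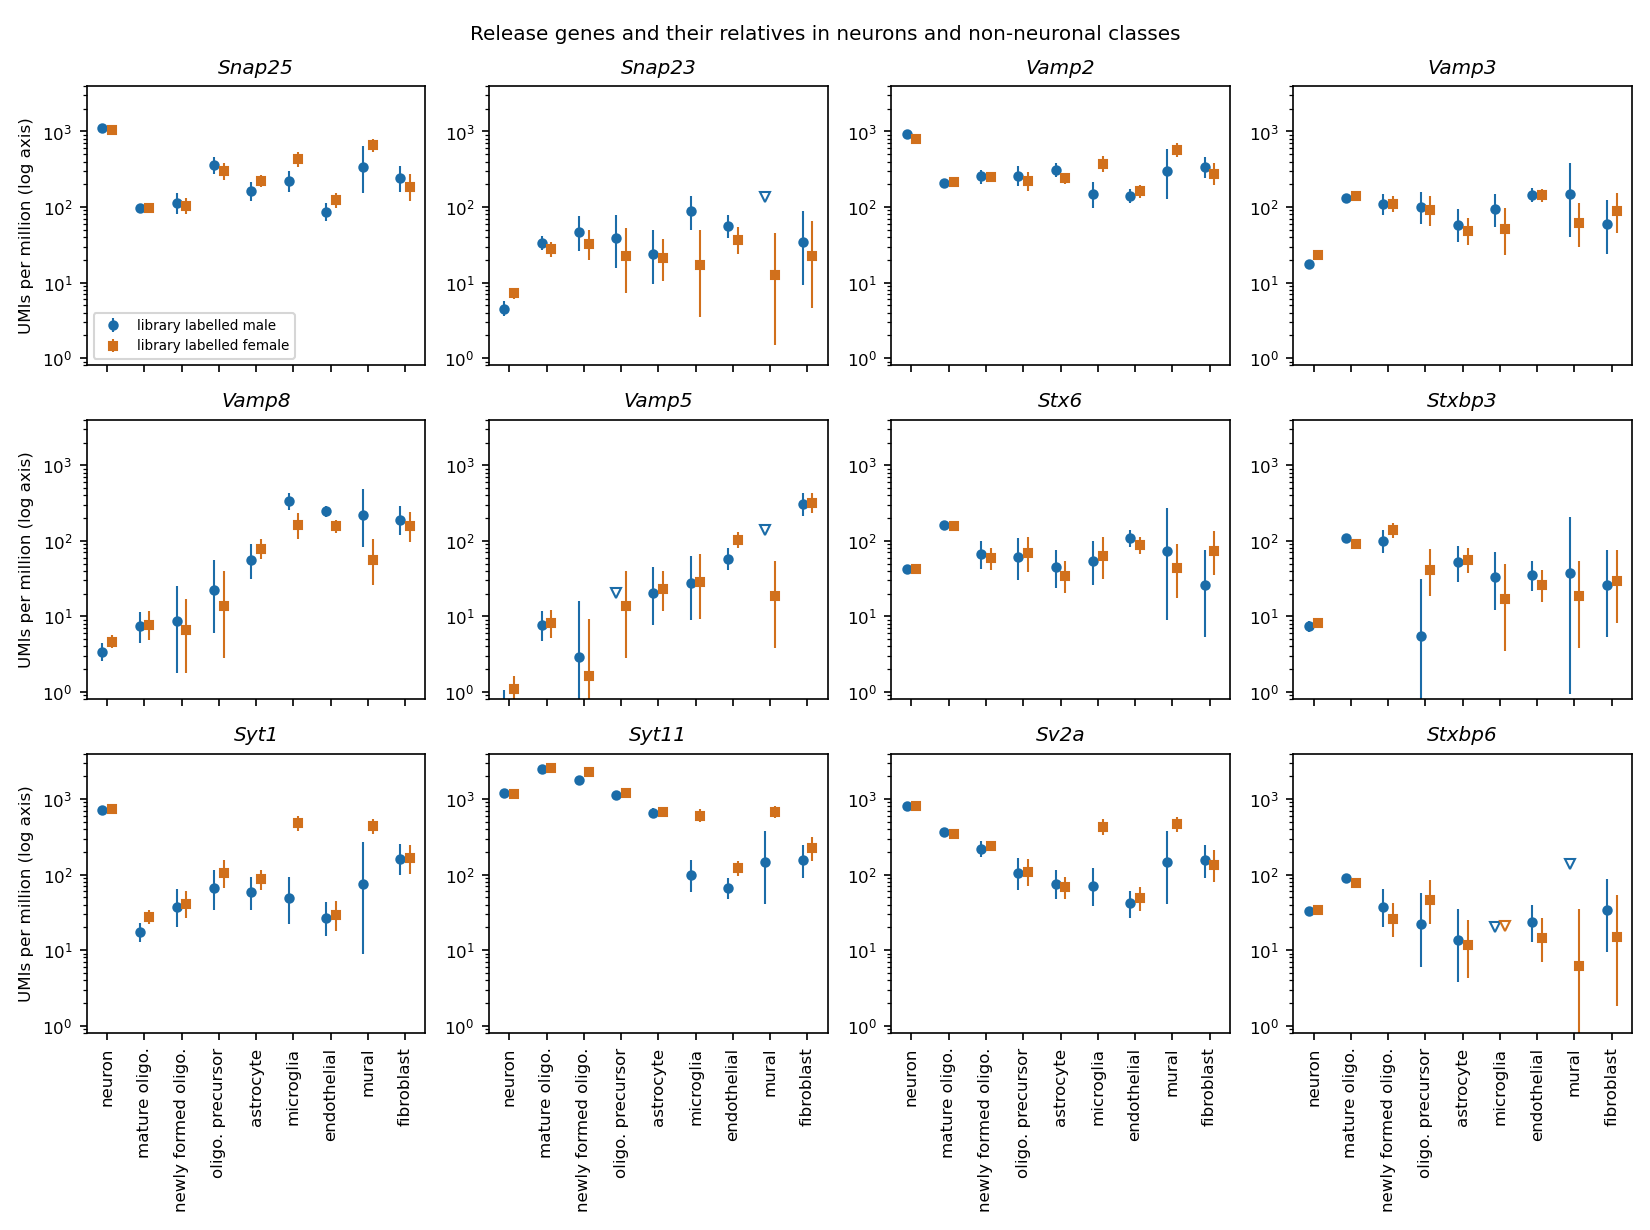
Levels of 12 genes in neurons and 8 non-neuronal classes in CPM on a log axis, with a circle and a square for the libraries labelled male and female, bars for exact 95% Poisson intervals and open triangles for the upper limit where no UMI was seen. Vamp8 stands at 338 and 160 in microglia and 245 and 157 in endothelial cells against 3.42 and 4.64 in neurons, and Stxbp3 at 109 and 91.7 in mature oligodendrocytes.

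Outside neurons, the 5 SNAREs of transmitter release were 2-fold or more lower than in neurons in part or all of the set: all 5 in mature oligodendrocytes, astrocytes and fibroblasts, 4 in endothelial cells, microglia and the other oligodendrocyte classes, and 0 in mural cells. The mural value rests on 9 and 33 cells. Neuron markers summed there to 7760 and 19199 CPM, against 24409 and 26415 CPM in neurons. Of the 19 SNAREs of general traffic, 3 to 5 were higher in each class and 1 to 3 lower. Non-neuronal clusters were named from marker lists and are "-like" classes, written here without that suffix: mature oligodendrocytes (609 and 595 cells), newly formed oligodendrocytes (74 and 104), their precursors (76 and 88), astrocytes (118 and 185), microglia (69 and 39), endothelial cells (146 and 150), mural cells (9 and 33) and fibroblasts (23 and 33). The 65 genes took 0.486% and 0.504% of UMIs in mature oligodendrocytes, 0.339% and 0.341% in astrocytes and 0.254% and 0.262% in endothelial cells. RNA freed from broken neurons can add to such values, and its part was gauged. The ratio of class to neuron level was taken for 20 genes of neurons alone, such as Slc32a1 and Stmn2. Its highest value per class and library is the limit at or below which a gene is read as background. In mature oligodendrocytes the median ratio was 0.0523 and 0.0555 and the highest 0.143 and 0.162, and 32 of the 65 genes lay above the highest in both libraries. In astrocytes 26 did, in endothelial cells 26, in microglia 11, in fibroblasts 9 and in mural cells 4. The limit differed by class, at 0.705 and 1.0012 in microglia and 1.34 and 0.485 in fibroblasts. These counts are therefore not compared between classes. The share of all genes above the limit was not counted, so the counts do not set the 65 genes apart from other genes.

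Each class was set beside neurons of its library, with a gene counted at 2-fold or more in both libraries and no test. Mature oligodendrocytes had 8 genes higher and 42 lower, where 10.2% of all genes were higher and 39.3% lower. Newly formed oligodendrocytes had 4 higher and 38 lower (10.4% and 22.1% of all genes). Their precursors had 3 and 25 (11.1% and 11.2%) and astrocytes 5 and 36 (12.1% and 18.2%). Microglia had 3 and 19 (8.33% and 13.3%) and endothelial cells 8 and 36 (15.4% and 27.3%). Mural cells had 3 and 10 (5.08% and 5.19%) and fibroblasts 6 and 34 (9.91% and 15.4%). At a stricter limit of 4-fold, mature oligodendrocytes had 3 genes higher and 34 lower (5.21% and 21.4% of all genes). Newly formed oligodendrocytes had 4 and 26 (4.76% and 8.74%), precursors 0 and 10 (3.51% and 2.98%) and astrocytes 3 and 20 (6.32% and 5.48%). Microglia had 2 and 1 (4.06% and 1.8%), endothelial cells 5 and 32 (9.27% and 13.3%), mural cells 1 and 1 (2.0% and 0.245%) and fibroblasts 2 and 14 (4.75% and 3.68%). In mature oligodendrocytes and endothelial cells all 8 calcium sensor synaptotagmins were among the lower genes, against 3 of 8 in microglia and in mural cells. Of 3 complexins, 0 were lower in microglia and mural cells and 2 in each other class.

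The genes that were higher in mature oligodendrocytes belong mainly to general traffic. Stxbp3, a syntaxin-binding protein of constitutive and glucose-regulated exocytosis, stood at 109 and 91.7 CPM against 7.36 and 8.25 CPM in neurons, 14.5 and 10.9 times higher. Vamp3, cellubrevin, stood at 133 and 141 CPM against 17.7 and 22.9 CPM, and Snap23, the widespread relative of Snap25, at 33.9 and 27.4 CPM against 4.52 and 7.26 CPM. Stx6, a syntaxin of the trans-Golgi network, stood at 162 and 159 CPM against 43.0 and 42.8 CPM. These 4 genes led the class, and both libraries gave similar folds except for Snap23 (7.23 and 3.71). Syt11 was also higher, at 2490 and 2606 CPM against 1212 and 1172 CPM. Stxbp6 stood at 89.8 and 77.5 CPM against 32.9 and 34.4 CPM, and 30.7% and 29.6% of these cells had a UMI of it. Sv2a was lower than in neurons, at 364 and 346 CPM against 815 and 800 CPM, but its ratio of 0.446 and 0.432 was above the background limit. Syt2, at 4.05 and 6.43 CPM, was below it. In newly formed oligodendrocytes Stxbp3 stood at 98.2 and 137 CPM, Stx2 at 69.3 and 78.3 CPM and Vamp3 at 110 and 111 CPM.

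Vamp8, endobrevin, marked microglia and vascular cells. It stood at 338 and 160 CPM in microglia, 245 and 157 CPM in endothelial cells, 223 and 56.2 CPM in mural cells, 188 and 156 CPM in fibroblasts and 55.1 and 79.0 CPM in astrocytes, against 3.42 and 4.64 CPM in neurons. Neurons were lowest of these classes in both libraries, while the ranges of microglia and the vascular classes overlapped. The mural level of Vamp8 rests on 6 and 9 UMIs. Vamp5, myobrevin, stood at 308 and 319 CPM in fibroblasts, 58.2 and 103 CPM in endothelial cells and 27.3 and 28.5 CPM in microglia, against 0.58 and 1.09 CPM in neurons. Vamp3 stood at 146 and 144 CPM in endothelial cells and 58.6 and 48.2 CPM in astrocytes. Snap23 stood at 56.5 and 36.6 CPM in endothelial cells and 24.1 and 21.2 CPM in astrocytes, and Stxbp3 at 51.7 and 55.9 CPM in astrocytes. Unc13b was the one Munc13 gene 2-fold higher than in neurons in a non-neuronal class in both libraries, at 41.6 and 45.4 CPM in endothelial cells against 14.2 and 16.0 CPM in neurons. Stx4a, a plasma membrane syntaxin of many cell types, stood at 260 and 206 CPM in mural cells. All genes together had 26934 UMIs in the 9 mural cells of the library labelled male, so its level there rests on few UMIs. Syt12 stood at 59.8 and 66.7 CPM in fibroblasts, 3.62 and 4.27 times the neuronal level. Syt15, almost absent from neurons, had 6 and 18 UMIs in endothelial cells, 9.98 and 26.4 CPM.

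Between the libraries the levels of these genes were close in most groups. Among genes with 50 or more UMIs in the 2 libraries together, none of 62 in neurons differed at 2-fold or more, where 0.683% of all genes did, and the ratio of the library labelled female to that labelled male lay between 0.774 and 1.60. None differed in the inhibitory (60 genes), other excitatory (59), Hcrt-high (39) or Pmch-high (44) neurons, with background shares of 0.578%, 0.624%, 0.874% and 0.756%. In mature oligodendrocytes (38 genes), precursors (7), astrocytes (17), endothelial cells (22) and fibroblasts (3) none differed either, with background shares of 0.676%, 1.61%, 1.23%, 2.03% and 6.29%. In newly formed oligodendrocytes 1 of 19 did, against 2.23%. In microglia 8 of 10 genes differed at 2-fold or more, against 27.0% of all genes. In that class the library labelled female had 39 cells, of which 6 had more than 3 times the class median of UMIs, and the module took 0.638% of its UMIs against 0.261% in the library labelled male. The 12 neuron markers summed to 3084 CPM in microglia of the library labelled male and to 11038 CPM in those of the library labelled female, and the 10 microglial markers to 31950 and 11534 CPM. In mural cells the neuron markers summed to 7760 and 19199 CPM, against 24409 and 26415 CPM in neurons. The part of neuronal RNA in the results for both classes was not tested. Without such large cells, an alternative chosen after seeing the data, 34 genes rather than 19 were lower in microglia than in neurons, and 24 rather than 10 in mural cells, where 5 of 33 cells were large.

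Some values rest on how reads were assigned. Exons of Syn1 overlap Araf on the opposite strand, those of Syn2 Timp4, of Syn3 Timp3, of Unc13a Colgalt1, of Snap29 Pi4ka, of Snap47 Jmjd4 and of Stx18 Nsg1. The use of strand in counting is not given in the sources used here, so the levels of these genes are uncertain to that degree. On GRCm38, Sv2c lies at chr13:95954594-96132577, Syt1 at chr10:108497650-109010982, Cplx2 at chr13:54371349-54383917, Vamp1 at chr6:125215551-125245964, Unc13c at chr9:73479422-73968966 and Stxbp6 at chr12:44852484-45074709.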

How the data were processed

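The deposited files hold, per library, raw UMI counts per gene and cell barcode. Per the submitters' processing notes the authors made these counts with Cell Ranger 2.2.0 on mm10/GRCm38. How cells were called is not given in the sources used here. Barcodes with under 500 genes or over 20% mitochondrial UMIs were removed (163 in each library), and the cells with the highest Scrublet scores were removed at 0.8% per 1000 barcodes (95 and 115 cells). The scorer's own threshold would have called 48 and 12. Cells were clustered with scanpy 1.11.5 without the 65 genes, and clusters were named where at least 3 markers were found in 25% of cells, a limit set after the clusters were seen.

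Tests used edgeR 4.0.16 in R 4.3.3 on summed counts (filterByExpr, TMM, library block, 2-sided, 3 residual degrees of freedom, biological coefficient of variation 3.24%), and the script was tested on simulated data. Every neuron group and both libraries pair by construction, since each library holds each group. Folds of classes and small groups add to both sides the CPM that 0.5 counts are worth in the smaller sum. Share intervals are Clopper-Pearson and ratio intervals exact, at 95%, and cover counting error alone. Named genes are 20 core genes, in each comparison up to 8 called genes a direction by fold with both libraries alike, and in each class up to 4 genes at 20 CPM or more. Others named, and those in the small groups, clusters and pairs, were chosen after their values were seen. The genes and lists were chosen with earlier results of these data known. Some genes of the list and of the companion lists are counted but not reported by name here. Gene positions are from GENCODE M21, which held 28339 of 28692 identifiers.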

Additional observations from a re-analysis of the deposited data

How the results depend on the processing

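Of the counts reported, 151 recomputed values stayed within 1.5 times and 31 did not. Some of the 151 could hardly have moved, so the tally does not measure stability. It takes in counts with either library left out, which ask only whether genes called from both libraries kept their direction in one of them. It also takes in a run with the genes of the list among those clustered, where the compared groups had the same numbers of cells and of calls. In inhibitory against other excitatory neurons, DESeq2's Wald test (DESeq2 1.42.0) gave 5 higher and 1 lower. A fit without the replicate block, that is without the pairing of groups by library, gave 5 and 2, thinning to 3000 UMIs gave 2 lower, and keeping peptide neurons in the transmitter groups gave 11 lower. In that last setting Syt2 stood at 0.36 and Rims1 at -0.083. In Hcrt-high neurons totals without TMM gave 11 higher and thinning 9, where Rims1 stood at -0.23. In Pmch-high neurons totals gave 21 lower with Syt11 at -0.19, and thinning gave 8 higher with Snap29 at -0.27. Between the peptide groups thinning gave 6 higher and 5 lower, with Syt14 at -0.39. Among all genes, thinning left 576, 1756, 1064 and 927 calls of 10110 in the 4 comparisons. The main fit gave 957, 4989, 4450 and 3463 of 12273. Totals gave 5540 calls in Hcrt-high and 5424 in Pmch-high neurons among all genes, 26.9% and 24.9% of them higher. With either library left out, each called gene kept its direction in the remaining one, so the counts stayed at 12 and 4, 19 and 15, 19 and 11, and 11 and 15, but 1 library alone gives no test. For the classes, a 4-fold limit gave 3 higher in mature oligodendrocytes, 0 higher and 10 lower in precursors, 3 and 20 in astrocytes, 1 lower in microglia, 5 higher in endothelial cells, 1 and 1 in mural cells and 2 and 14 in fibroblasts. Keeping doublets gave 6 higher in microglia and 2 lower in mural cells. A filter at 1000 genes and 10% mitochondrial UMIs gave 6 and 37 in microglia and 6 lower in fibroblasts, and no mural class was obtained. Thinning to 2000 UMIs gave 28 lower in mural cells, and leaving out large cells gave 34 lower in microglia and 24 in mural cells. The causes were not tested, except that thinning leaves fewer UMIs by construction. Totals and leaving out large cells were chosen after seeing the data. Mural, fibroblast and microglial counts rest on few cells, and genes with under 10 UMIs in a peptide group are limited by depth.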
